A study of Mus musculus with 8 samples.

Results

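The genes described here make, destroy and read cyclic AMP (cAMP), the second messenger of the β-adrenergic receptors. They are 46 genes of the 23597 in the deposited table, taken by symbol from a fixed list of adenylyl cyclases, cAMP phosphodiesterases, subunits and inhibitors of protein kinase A (PKA), CREB factors with their coactivators, Epac exchange factors, A-kinase anchoring proteins (AKAPs) and salt-inducible kinases. All 46 symbols were found. Mouse corneas were profiled by RNA-seq at day 14 of dry eye induced by scopolamine, which blocks muscarinic receptors and so tear secretion. In the 4 samples named ICI the animals were also treated with ICI 118551, a blocker of β2-adrenergic receptors. The 4 named Scop had scopolamine alone, and every sample pooled 4 corneas. The labels give no strain, age or dose and do not tie pools to animals, so the p-values speak for the spread among the 8 pools. Since all 8 had dry eye, each comparison sets ICI against Scop within scopolamine-treated corneas.

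An agonist on a Gs-coupled receptor activates adenylyl cyclase at the membrane, and the cAMP it makes is removed by phosphodiesterases, each family with its own affinity and place in the cell. cAMP binds the regulatory subunits of PKA, through which AKAPs hold the enzyme near its substrates, and frees the catalytic subunits. It also opens the Rap exchange factor Epac. PKA phosphorylates CREB in the nucleus and restrains the salt-inducible kinases, which lets the CRTC coactivators enter the nucleus. CREB binds the cAMP response element, an 8-letter palindrome in its full form.

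Because several of these genes are themselves known to be under cAMP control, the RefSeq promoter windows of the members were searched for TGACGTCA, the full element, and for its short form, TGACG or CGTCA by strand. A window ran from 250 bases before to 50 after an annotated start (GRCm38.p6), and 36 members had at least 1, giving 67 windows. The full element was in 2 overlapping windows of 1 member, Prkar1a (2.99% of member windows, against 1.79% of all 32851 windows). The short form, which the full element also contains, was in 19 windows of 17 members (28.4%, against 20.8% of all windows). By gene this was 47.2% of the 36 members and 23.0% of all 27025 genes with a window, and members had more windows per gene (1.86 against 1.22). The stretches for 4 PKA subunit genes are shown because this enzyme holds the most abundant members and both with the smallest p, each as 30 bases with the motif in capitals. Prkacb, of the same enzyme, also had CGTCA, 102 bases before its start, and is not shown. A match is a description of the letters only.
Prkar1a: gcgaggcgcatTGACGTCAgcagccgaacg
Prkar2a: ccgcggccgcgtgCGTCAcaacccgggcgc
Prkar1b: ttagagggcggagTGACGggcaggaggacg
Prkaca: agtctgcaactcgCGTCActcatccaggag
The Prkar1a stretch lies on chromosome 11, 109650889 to 109650918, plus strand, with its motif starting 49 bases before the start at 109650949. The same motif begins at base 39 of a transcript from the start at 109650862. The Prkar2a stretch is on chromosome 9, 108692126 to 108692155, plus strand, and its motif begins 4 bases before the start. That of Prkar1b is on chromosome 5, 139150034 to 139150063, minus strand, with the motif 49 bases before the start at 139150001. This start and stretch lie inside the span of the gene, 139017304 to 139150703. That of Prkaca is on chromosome 8, 83972845 to 83972874, plus strand, with the motif 120 bases before the start at 83972978. Prkaca had CGTCA again 6 bases before the same start.

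The values are FPKM, which correct fragments for the length of the gene and the depth of the library, so levels of different genes can be set side by side. Whole fragments recovered from the steps of the values summed to between 34354346 and 39885822 per library. The tissue label was borne by Krt12, the cornea's own keratin, at 15153 to 18414 FPKM in the 8 libraries, and the 8 epithelial markers summed to 34544 to 40129. Libraries stood apart in their other cell types. The 10 keratocyte markers summed to 648 FPKM in Scop replicate 3 and to 1629 to 2217 in the others, with 8 of 10 lowest in Scop replicate 3. The 6 corneal endothelium markers summed to 188 FPKM in ICI replicate 1, 129 in Scop replicate 1 and 51.3 to 97.7 elsewhere, with 6 of 6 highest in ICI replicate 1 and 6 of 6 lowest in Scop replicate 3. The loci that collect ribosomal RNA reads summed to 3826 to 3995 FPKM in ICI, 717 to 1177 in Scop replicates 1, 2 and 3, and 5113 in Scop replicate 4. Immune markers summed to 50.3 to 76.0 FPKM, with the pan-leukocyte gene Ptprc at or below 0.255. In these pools, fewer cells of a type and less RNA per cell cannot be told apart.

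**Figure D1:**
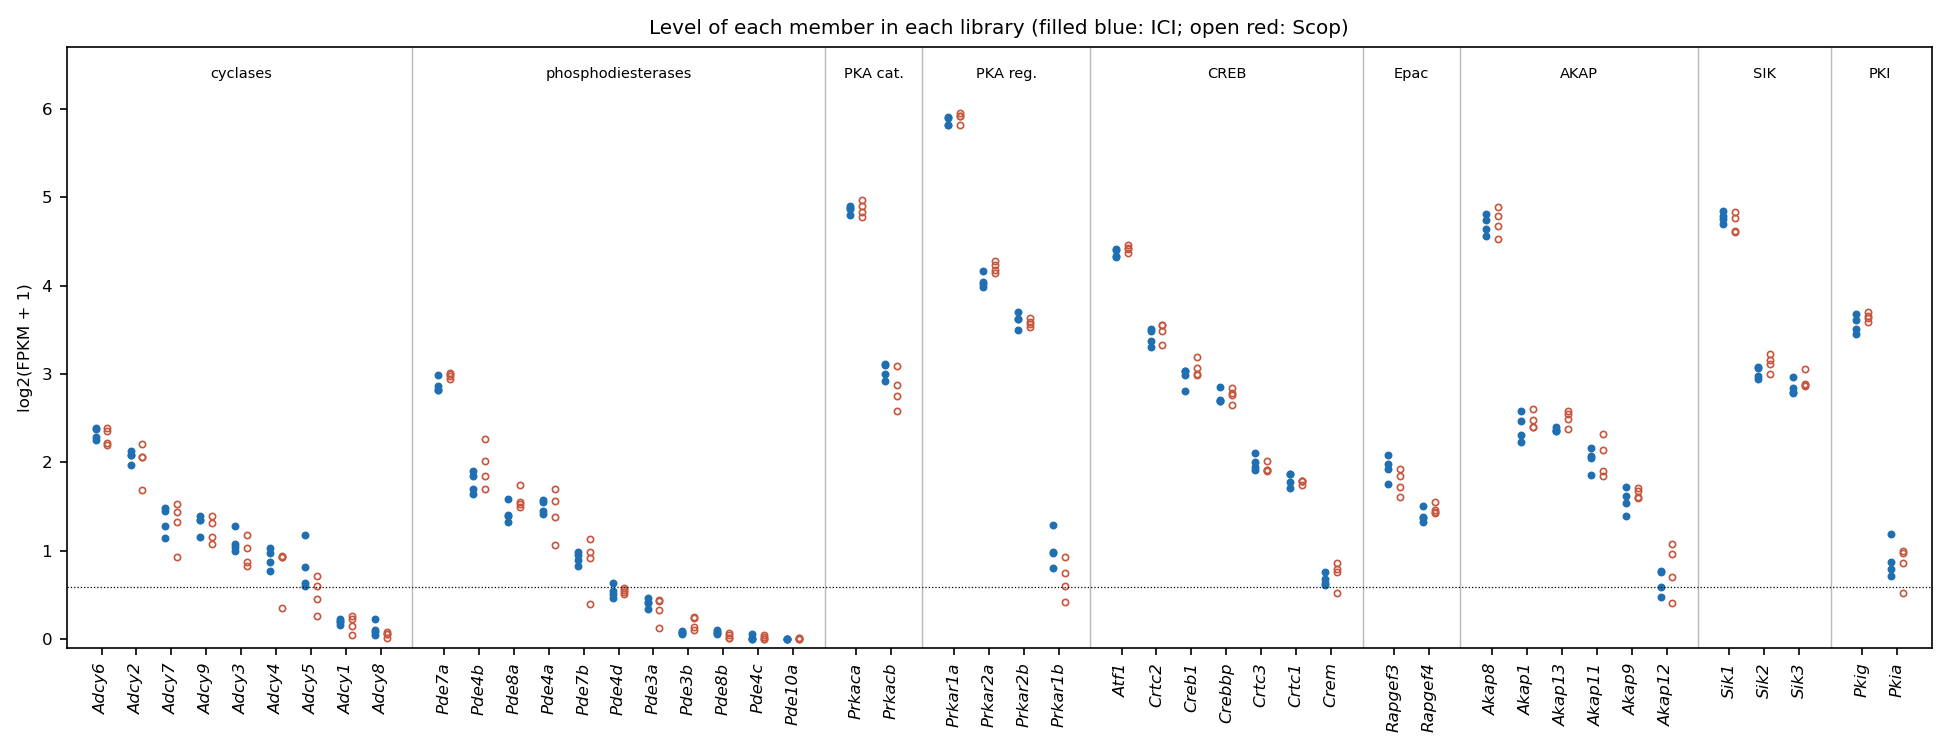
Level of each of the 46 genes as log2(FPKM + 1), grouped by role and ordered by mean, with a point per library (4 ICI, filled; 4 Scop, open) and a dotted line at 0.5 FPKM, the mean level needed for testing. Prkar1a is highest at a mean of 58.0 FPKM, and 8 genes have means below the line.

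The pathway was built on few abundant genes. The mean over 8 libraries exceeded 10 FPKM for 8 members and reached 5 FPKM for 15, while the median of the 46 means was 2.55 FPKM. Highest was the regulatory subunit gene Prkar1a (58.0 ± 2.16 FPKM, SD, n = 8), followed by the catalytic subunit gene Prkaca (28.1 ± 1.22), the kinase gene Sik1 (25.8 ± 1.67) and the anchoring protein gene Akap8 (25.2 ± 2.31). Sik1 and Akap8 did not differ beyond their spread. The enzymes that set the cAMP level stood far lower, with 9 cyclases summing to 12.7 ± 1.53 FPKM and 11 phosphodiesterases to 14.7 ± 1.18, against 86.5 ± 2.98 for the 4 regulatory subunits.

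The test asked of each gene whether its level differed between the β2-blocked and the unblocked dry eye cornea. It was limma on log2(FPKM + 1) across 12100 genes that averaged 0.5 FPKM or more, and 38 members were among them. No member passed at an adjusted p under 0.05, 0 higher and 0 lower in ICI, with a background of 0% of all tested genes in each direction, and limma-voom on the recovered fragments also called 0 members. Adjusted p among the members ran from 0.340 to 0.969. At an unadjusted p under 0.05, 1 member was higher in ICI, Prkar1b (background 4.56% of all tested genes), and 1 lower, Prkar2a (background 7.46%). No member had groups without overlap, 0 of 38 with ICI higher and 0 with ICI lower, where 2.63% and 4.36% of all tested genes did (6.98% together). The median log2 fold change, ICI minus Scop, was -0.02 over the members and -0.02 over all tested genes, with 21 of 38 members negative (55.3%, against 55.4% of all tested genes). These shares of calls lie at or below the background.

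The intervals bound how large a change could be. For the 15 members with a mean of at least 5 FPKM, limma's 95% intervals of the log2 fold change all lay within -0.5 to 0.5. That is within 1.41-fold either way in FPKM + 1. They ran from -0.28 (the lower bound of Prkar2a) to 0.44 (the upper bound of Prkacb). The pseudocount of 1 shrinks both the fold change and its interval, somewhat for genes near 5 FPKM and more for lower genes. The intervals of lower genes therefore do not bound the change in FPKM.

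**Figure D2:**
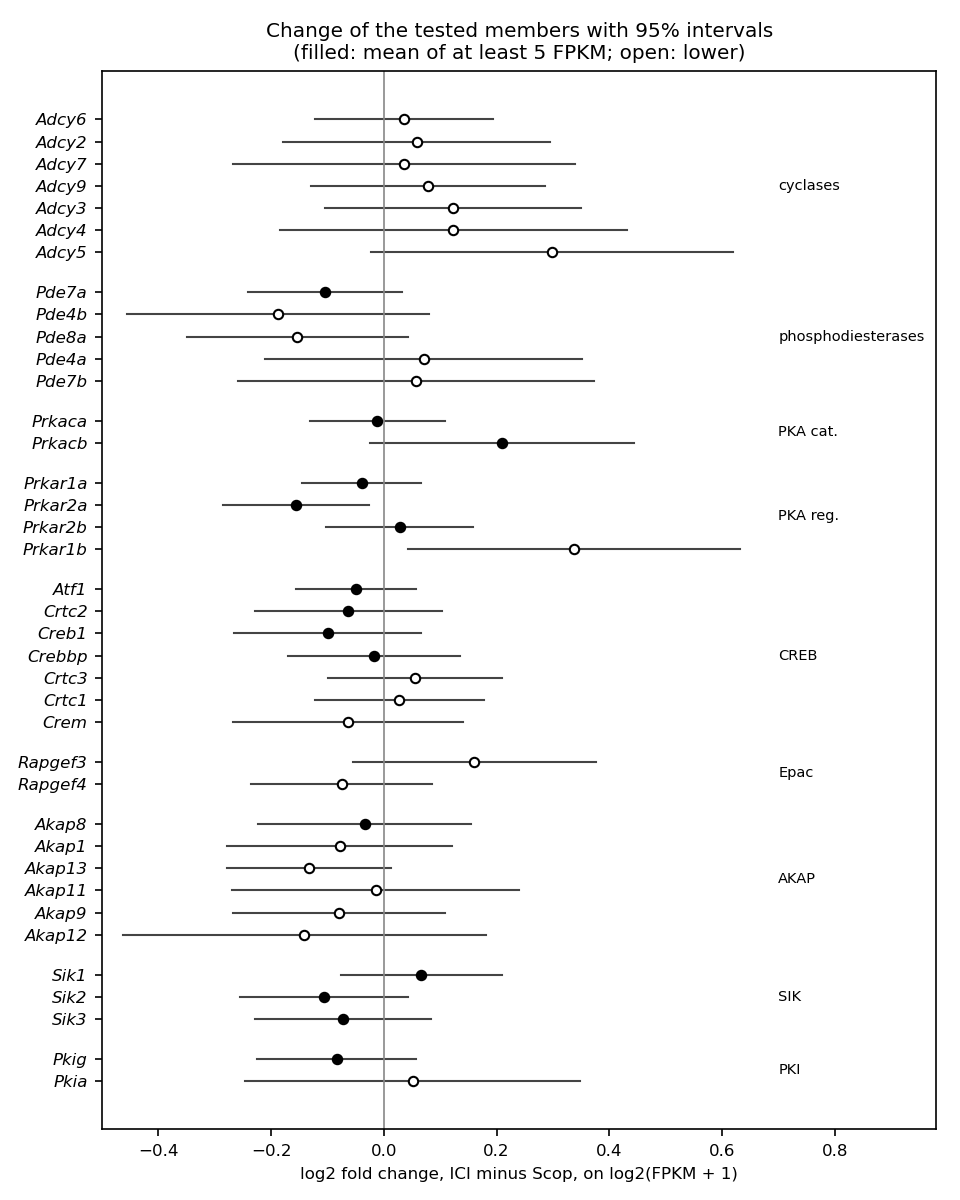
Log2 fold change, ICI minus Scop, of the 38 tested members on the log2(FPKM + 1) scale with limma's 95% intervals, grouped by role (filled, mean of at least 5 FPKM). The intervals of Prkar2a and Prkar1b exclude 0 before adjustment, those of the other 36 include it.

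Adenylyl cyclases, which make cAMP from ATP, were led by Adcy6, a calcium-inhibited form, and Adcy2, a form stimulated by βγ subunits, together 50.9% to 63.0% of the cyclase sum by library. Adcy6 stood at 3.88, 4.18, 3.77 and 4.22 FPKM in ICI replicates 1 to 4 and at 4.10, 4.23, 3.59 and 3.66 in Scop, so the groups overlapped (log2 fold change 0.04, SE 0.07, limma's adjusted p = 0.866). Adcy2 followed at 3.18 ± 0.194 FPKM in ICI and 3.05 ± 0.586 in Scop (SD, n = 4, as below). Adcy7, Adcy9, Adcy3 and Adcy4 had means over 8 libraries between 0.818 and 1.52 FPKM. All 7 tested cyclases had positive values, from 0.04 to 0.30 on the log2(FPKM + 1) scale, and none passed, with limma's lowest adjusted p at 0.444 for Adcy5. The signs held under median-ratio and quantile scaling but not without Scop replicate 3, when 4 were positive and 3 negative (Adcy2 at -0.05, Adcy4 at -0.02 and Adcy7 at -0.09) and Adcy6 was at 0.0058. Adcy7 was also negative without ICI replicate 1 or ICI replicate 2, so no direction is given for the cyclases.

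Adcy5, a calcium-inhibited cyclase best known from heart and striatum, varied most among the tested members, with an SD of 52.2% of its mean over 8 libraries. It stood at 1.27, 0.556, 0.756 and 0.521 FPKM in ICI and 0.521, 0.644, 0.202 and 0.371 in Scop. The highest value was in ICI replicate 1 and the lowest in Scop replicate 3. These libraries had the most and the least marker RNA of corneal endothelium and also of keratocytes. Scop replicate 1, second in endothelium marker RNA (129 FPKM), had 0.521, within the range of ICI replicates 2 to 4. The part of those cells in the result was not tested. The neural cyclases Adcy1 and Adcy8 were too low to test, at no more than 0.195 and 0.166 FPKM in any library. Exons of Adcy3 share 22.1% of their bases with Cenpo on the other strand, and whether the counting used strand is not given in the sources used here.

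Phosphodiesterases, which cleave cAMP, were led by Pde7a, a cAMP-specific enzyme that resists rolipram. It stood at 6.29, 6.07, 6.03 and 6.95 FPKM in ICI and 6.86, 6.66, 6.97 and 7.03 in Scop. Only ICI replicate 4 reached into the Scop range (log2 fold change -0.11, SE 0.06, limma's adjusted p = 0.529). The 4 Pde4 genes, targets of rolipram, made up 27.9% to 38.3% of the phosphodiesterase sum, with Pde4b at 2.42 ± 0.287 FPKM in ICI and 2.92 ± 0.671 in Scop and Pde4a at 1.83 ± 0.148 and 1.72 ± 0.497. Pde8a, a high-affinity enzyme insensitive to the general inhibitor IBMX, averaged 1.84 FPKM over the 8 libraries (log2 fold change -0.15, SE 0.09). Its highest value, 2.35, was in Scop replicate 3, in which Pde7b and Pde4a had their lowest.

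Of the 5 tested phosphodiesterases, 3 had negative and 2 positive values, from -0.19 (Pde4b, adjusted p = 0.564) to 0.07 (Pde4a), and none passed. Without Scop replicate 3 all 5 were negative, with Pde4a at -0.05 and Pde7b at -0.10. Pde4d, Pde3a, Pde3b, Pde8b, Pde4c and Pde10a lay below the level for testing, at means of 0.455 FPKM or less. Among them only Pde3b, an enzyme inhibited by cGMP, had groups that did not overlap, lower in ICI, where 2.74% of all genes above 0 in a library did in that direction and 4.74% in either. It stood at 0.0480, 0.0382, 0.0624 and 0.0602 FPKM in ICI and 0.189, 0.101, 0.0712 and 0.178 in Scop. These values rest on 10, 8, 13 and 12 fragments in ICI and 40, 21, 13 and 34 in Scop, so the nearest libraries, ICI replicate 3 and Scop replicate 3, had 13 each. Tested without the filter on low values, limma gave it an unadjusted p of 0.0147 and an adjusted p of 0.439.

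The ratio of the summed cyclases to the summed phosphodiesterases was 1.02, 0.956, 0.942 and 0.862 in ICI and 0.821, 0.837, 0.679 and 0.824 in Scop, so each ICI library lay above each Scop library. This ratio was formed after the values of its genes had been seen and carries no test. The sum of cyclases was 13.2 ± 0.657 FPKM in ICI and 12.1 ± 2.05 in Scop, and that of phosphodiesterases 14.1 ± 0.513 and 15.3 ± 1.43. The ratio shows unequal values of the 2 sums, not which of them changed. It was lowest in Scop replicate 3, where keratocyte marker RNA was also lowest. With that library and ICI replicate 1 left out, the difference of means was 0.09 against 0.15 with all libraries.

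PKA is a tetramer of catalytic and regulatory subunits. The genes (RefSeq, GRCm38.p6) lie on chromosome 8, 83972978 to 83996444 (Prkaca), chromosome 11, 109649023 to 109669663 (Prkar1a), chromosome 9, 108692143 to 108750444 (Prkar2a), and chromosome 5, 139017304 to 139150703 (Prkar1b). Among the catalytic subunit genes Prkaca, the main form of most tissues, made up 78.9% to 84.2% of the sum. It stood at 28.1, 28.8, 28.4 and 26.7 FPKM in ICI and 28.9, 30.2, 26.4 and 27.5 in Scop (log2 fold change -0.01, SE 0.05, limma's adjusted p = 0.947). The groups overlapped, and the sign of this value turned under median-ratio scaling (0.01), so no direction is given. Prkacb, the second catalytic gene, stood at 6.55, 7.67, 7.59 and 6.97 FPKM in ICI and 6.36, 7.52, 4.96 and 5.71 in Scop. It had 0.21 (SE 0.10, adjusted p = 0.461), with its lowest values in Scop replicates 3 and 4.

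**Figure D3:**
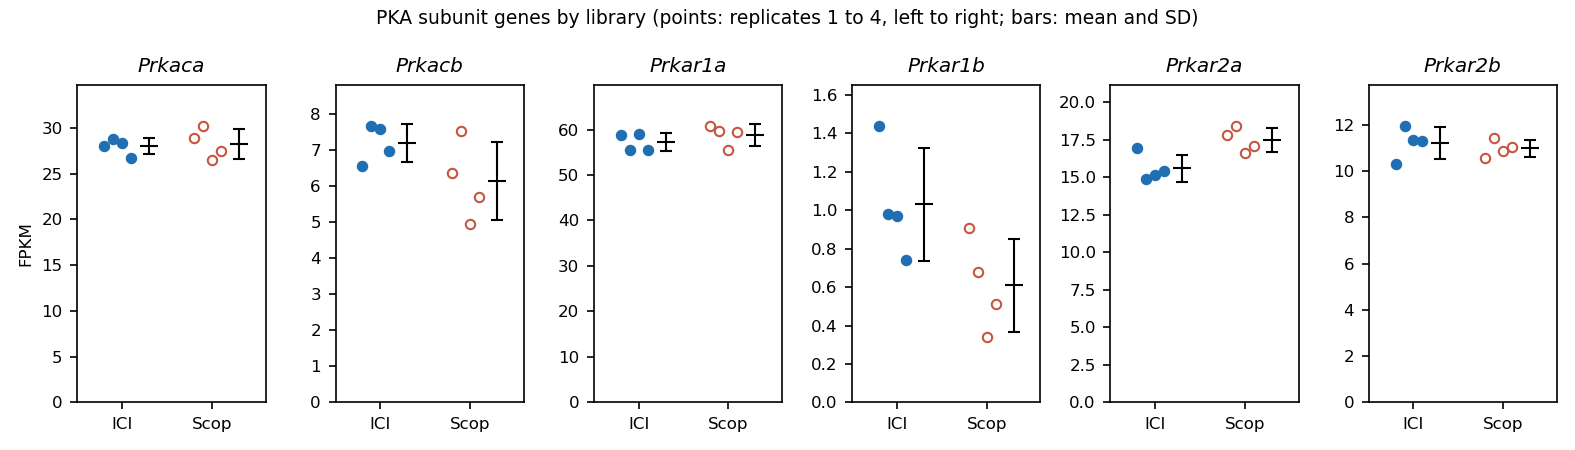
FPKM of the 6 PKA subunit genes in each library (ICI filled, Scop open, each panel with its own axis from 0), with the mean and SD of each group of 4. In Prkar2a only ICI replicate 1 (16.9) reaches the Scop range (16.6 to 18.4), and in Prkar1b the groups overlap between 0.739 and 0.906.

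Regulatory subunits bind cAMP and differ in where they sit, type I mostly in the cytosol and type II mostly on AKAPs. Prkar1a, the type Iα gene that also holds free catalytic subunits in check, stood at 58.7, 55.6, 59.0 and 55.6 FPKM in ICI and 60.8, 59.7, 55.4 and 59.4 in Scop. The groups overlapped (log2 fold change -0.04, SE 0.05, limma's adjusted p = 0.771), and its SD was 3.72% of its mean over the 8 libraries. Prkar2b, the type IIβ gene, was at 11.2 ± 0.683 against 11.0 ± 0.352 FPKM.

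Prkar2a, the type IIα gene, stood at 16.9, 14.9, 15.2 and 15.5 FPKM in ICI and at 17.8, 18.4, 16.6 and 17.1 in Scop. The ICI values were the lower ones apart from replicate 1, which lay above Scop replicate 3. Its log2 fold change was -0.16 (SE 0.06, 95% interval -0.28 to -0.03), with an unadjusted p of 0.0230, the smallest among the members, and limma's adjusted p = 0.340. Left out together, ICI replicate 1 and Scop replicate 3 gave -0.22 (SE 0.06, adjusted p = 0.138). These are the libraries that overlapped. The unadjusted p no longer lay under 0.05 without ICI replicate 2 or 3, without Scop replicate 1 or 2 (log2 fold changes of -0.13 to -0.15), or with the ribosomal locus score as covariate (-0.12, adjusted p = 0.748). As a share of the 4 regulatory genes it was 19.4%, 17.8%, 17.5% and 18.6% in ICI and 19.8%, 20.4%, 20.0% and 19.4% in Scop. The groups did not overlap, but the nearest libraries, ICI replicate 1 (19.39%) and Scop replicate 4 (19.41%), were almost equal.

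Prkar1b, the type Iβ gene known mainly from nervous tissue, was low and ran the other way, at 1.44, 0.978, 0.968 and 0.739 FPKM in ICI and 0.906, 0.676, 0.342 and 0.512 in Scop. It rested on 92 to 187 fragments in ICI and 39 to 120 in Scop. Its log2 fold change was 0.34 (SE 0.13, unadjusted p = 0.0289, limma's adjusted p = 0.356) on the log2(FPKM + 1) scale, 0.70 with a pseudocount of 0.1 and 0.78 with limma-voom on fragments. With the keratocyte score as covariate it was 0.23, and the unadjusted p no longer lay under 0.05. The highest value was in ICI replicate 1, which had the most corneal endothelium marker RNA (188 FPKM summed over 6 markers). The lowest was in Scop replicate 3, which had the least (51.3). The same libraries had the most and the least keratocyte marker RNA. Without both libraries the log2 fold change was 0.16 (SE 0.11, adjusted p = 0.525), and the part of other cell types was not tested. The 6 Schwann cell markers summed to 40.0 FPKM in ICI replicate 1 and 47.0 in Scop replicate 3.

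The sum of regulatory over the sum of catalytic transcripts was between 2.29 and 2.65 in the 8 libraries and overlapped between the groups (2.42 ± 0.101 in ICI, 2.56 ± 0.122 in Scop). Of the PKA inhibitor genes, whose small proteins block the catalytic site and export the kinase from the nucleus, Pkig made up 90.3% to 96.4%. Pkig stood at 11.8, 10.4, 11.2 and 9.98 FPKM in ICI and 12.1, 11.0, 11.6 and 11.4 in Scop (log2 fold change -0.08, SE 0.06, limma's adjusted p = 0.626). The ranges overlapped. Pkia was at 0.867 ± 0.282 against 0.802 ± 0.254 FPKM, again highest in ICI replicate 1 (1.27) and lowest in Scop replicate 3 (0.439).

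Epac proteins pass the cAMP signal to the small GTPase Rap1. Rapgef3 (Epac1) stood at 3.24, 2.79, 2.36 and 2.95 FPKM in ICI and 2.28, 2.80, 2.05 and 2.60 in Scop. The ranges overlapped (log2 fold change 0.16, SE 0.10, limma's adjusted p = 0.540). Rapgef4 (Epac2) was at 1.63 ± 0.140 against 1.77 ± 0.111 FPKM.

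CREB factors and their coactivators carry the signal to chromatin. Atf1, a CREB relative and the highest of the 7, stood at 19.1, 20.3, 19.1 and 20.1 FPKM in ICI and 20.9, 20.5, 20.4 and 19.6 in Scop. The groups overlapped in a narrow range (log2 fold change -0.05, SE 0.05, limma's adjusted p = 0.706), and its SD of 3.38% of the mean was the smallest among the members. Creb1 was at 6.82 ± 0.556 against 7.38 ± 0.557 FPKM, and the acetyltransferase gene Crebbp at 5.68 ± 0.366 against 5.77 ± 0.389. Among the coactivators Crtc2 (a mean of 9.95 FPKM over the 8 libraries) exceeded Crtc3 (2.98 ± 0.229 against 2.83 ± 0.134) and Crtc1 (a mean of 2.46). Crem, whose short form ICER is induced by cAMP and represses its targets, was low, at 0.526, 0.595, 0.690 and 0.553 FPKM in ICI and 0.813, 0.730, 0.435 and 0.696 in Scop. The 7 values ran from -0.10 (Creb1) to 0.05 (Crtc3), 5 negative and 2 positive (4 and 3 after quantile normalisation, where Crebbp turned), and none passed.

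Salt-inducible kinases phosphorylate the CRTC proteins and keep them out of the nucleus. Sik1, the member whose own transcription CREB drives, stood at 26.6, 25.0, 27.8 and 26.0 FPKM in ICI and 26.2, 23.6, 27.5 and 23.3 in Scop (log2 fold change 0.07, SE 0.06, limma's adjusted p = 0.707). The groups overlapped, with Scop replicates 2 and 4 lowest. Sik2 was at 7.10 ± 0.364 against 7.73 ± 0.565 FPKM and Sik3 at 6.21 ± 0.417 against 6.59 ± 0.498, both with negative values (-0.11, SE 0.07 and -0.07, SE 0.07). Sik1 as a share of the 3 was 66.6%, 66.5%, 67.0% and 65.6% in ICI and 63.2%, 62.7%, 65.3% and 63.6% in Scop, with no overlap. Like the other shares it was formed after the genes' values were seen and has no test. Exons of Sik2 share 15.0% of their bases with Ppp2r1b on the other strand.

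AKAPs tether PKA to membranes, organelles and chromatin. Akap8, a nuclear matrix anchor, stood at 24.0, 25.7, 22.6 and 27.1 FPKM in ICI and 28.7, 26.7, 22.0 and 24.6 in Scop. The groups overlapped (log2 fold change -0.03, SE 0.09, limma's adjusted p = 0.896), and the sign turned without Scop replicate 1 (0.02), so no direction is given. Akap1, the mitochondrial anchor, was at 4.28 ± 0.578 against 4.56 ± 0.367 FPKM, and Akap13, a large scaffold, at 4.16 ± 0.0758 against 4.66 ± 0.345. Akap13 had 4.15, 4.11, 4.27 and 4.11 FPKM in ICI and 4.86, 4.60, 4.98 and 4.20 in Scop. Only Scop replicate 4 reached into the ICI range (log2 fold change -0.13, SE 0.07, adjusted p = 0.456). Akap11, the centrosomal Akap9 and the cytoskeletal scaffold Akap12 had means of 3.15, 2.05 and 0.662 FPKM. All 6 AKAP values were negative, from -0.14 (Akap12) to -0.01 (Akap11), and none passed. Akap11 turned positive under median-ratio scaling and without ICI replicate 1, Scop replicate 1 or Scop replicate 2, and with the ribosomal locus score as covariate 3 of the 6 were positive.

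Of the 14 shares and ratios formed within the roles, 4 had no overlap between the groups. They were the ratio of cyclases to phosphodiesterases and the share of Sik1, higher in ICI, and the share of Prkar2a and that of Pde4b among the Pde4 genes (51.3% ± 3.16 against 57.2% ± 1.89), lower in ICI. Among single tested genes 6.98% had no overlap, but shares of related genes depend on each other and are no sample of such genes. A scaling of whole libraries cancels in them.

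Single libraries stood apart in many of the low members. Scop replicate 3 had the lowest value in 18 of 38 tested members (47.4%, against 24.9% of all tested genes). In 7 of them, Adcy4, Adcy5, Adcy7, Pde4a, Pde7b, Prkar1b and Pkia, it lay below 0.75 of the lowest other library (18.4%, against 5.57% of all tested genes). Adcy4, for example, was at 0.275 FPKM in that library and between 0.710 and 1.04 in the others. Keratocyte markers were low there too, 648 FPKM in sum against 1629 or more. In 2, Adcy5 and Prkar1b, the highest other library lay below 0.75 of ICI replicate 1 (5.26%, against 1.09% of all tested genes). In that library the endothelial and the keratocyte markers summed to their highest. The part of stromal and endothelial cells in these values was not tested. Of the 38 tested members 4, Pde8a, Akap13, Sik2 and Rapgef4, were highest in Scop replicate 3. This is a smaller share than the 15.0% of all tested genes, so the members did not stand out in this direction. In that library the 8 epithelial markers summed to their highest, 40129 FPKM. Of these markers Pax6, Aldh3a1 and Cdh1 were higher in another library. The conjunctival markers Krt13, Krt4 and Krt19 also summed to their highest there, 1857 FPKM against 1114 to 1282 elsewhere. The part of either epithelium was not tested. Atf1, Prkar1a, Prkaca and Prkar2b had an SD below 5% of the mean over the 8 libraries.

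**Figure D4:**
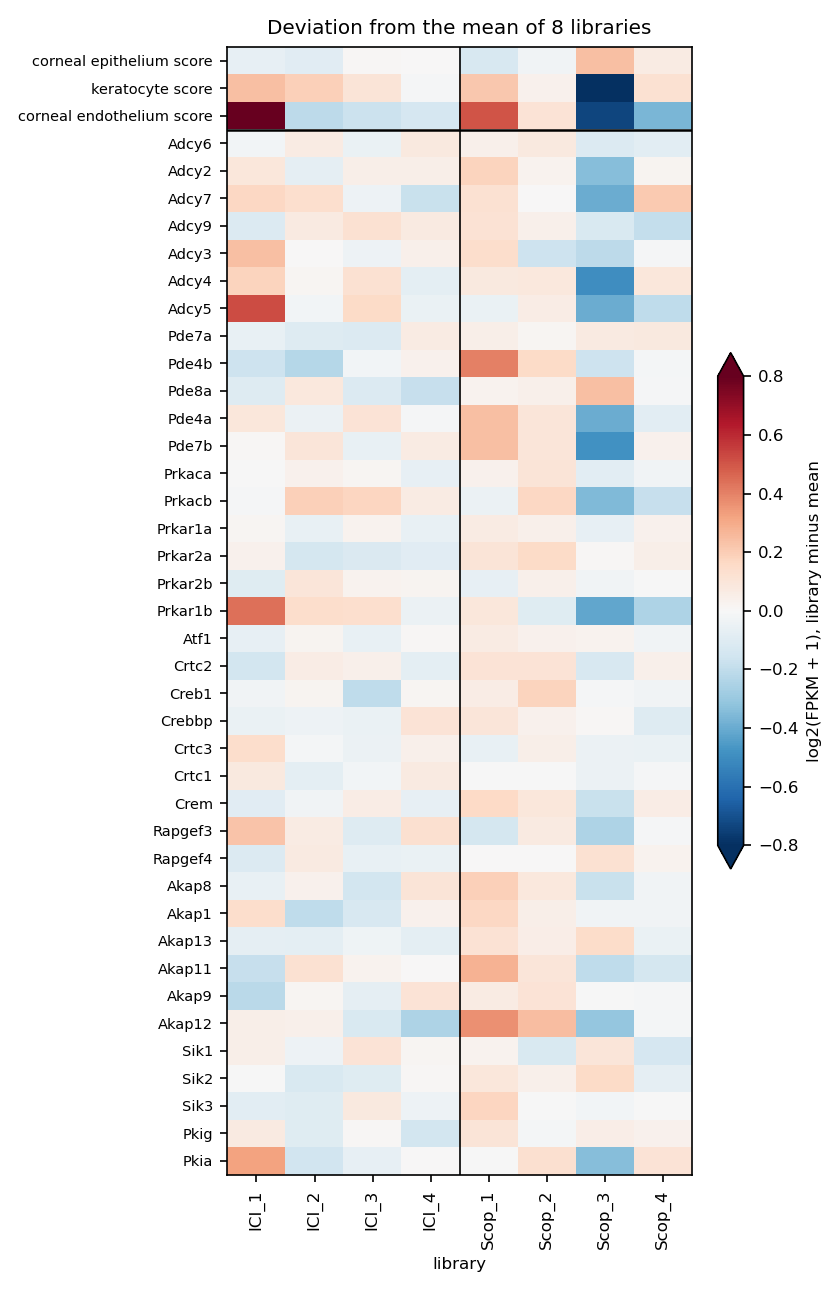
Deviation of the 38 tested members, and of the scores (mean log2(FPKM + 1)) of 3 marker lists in the top rows, from their mean over the 8 libraries; colours end at 0.8 on the log2 scale, and values beyond it take the end colour. Scop_3 is low in the keratocyte score and in Adcy4, Pde7b and Prkar1b, and ICI_1 is high in the endothelium score, Adcy5 and Prkar1b.

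The rest of the pathway was followed in 8 lists of 118 genes, of which 70 were tested, and 0 passed in either direction at an adjusted p under 0.05. G proteins of cyclase control had 4 positive and 8 negative values in 12 tested, with the γ subunit gene Gng5 highest (213 ± 16.2 against 220.1 ± 20.8 FPKM) and Rgs2, a regulator of G protein signalling, at the smallest p (0.14, SE 0.10). Among receptors that couple to Gs, 7 were tested. The adenosine receptor gene Adora2b was the highest, at 6.82 ± 1.22 against 7.06 ± 0.759 FPKM, and the parathyroid hormone receptor gene Pth1r had the smallest p (2.88 ± 0.467 against 1.81 ± 0.562, limma's adjusted p = 0.293). Of 6 tested desensitisation genes Grk2, the kinase of activated receptors, was highest (30.4 ± 1.26 against 32.3 ± 2.28 FPKM), and Grk6 had -0.13 (SE 0.06, adjusted p = 0.448). Abcc4, a pump that exports cAMP, was at 12.0 ± 0.991 against 11.6 ± 0.815 FPKM, 1 of 2 tested in its list. Among 11 further PKA partners the membrane linker and anchor Ezr was at 263 ± 9.93 against 282 ± 20.3 FPKM and Gsk3b, a kinase under PKA control, had the smallest p (-0.11, SE 0.06). Of 7 other cAMP effectors Rap1b was at 101 ± 2.13 against 108 ± 4.58 FPKM, and Popdc3, a cAMP-binding membrane protein gene, had 0.28 (SE 0.10, adjusted p = 0.304). Among 9 further CREB relatives Creb3 was at 23.3 ± 0.806 against 23.2 ± 1.32 FPKM, and Creb3l1 had -0.21 (SE 0.19).

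Genes known to be induced through CREB were the list with the most unadjusted p under 0.05, 9 of 17 tested, all higher in ICI (background 4.56% of all tested genes), and 0 after adjustment over all genes. Per2, a clock repressor gene, had the smallest p, at 7.07 ± 0.802 against 4.81 ± 0.635 FPKM (log2 fold change 0.48, SE 0.10, limma's adjusted p = 0.162). Junb, an AP-1 subunit gene, was the highest at 125 ± 36.2 against 86.7 ± 5.80 FPKM. It stood at 166, 139, 114 and 81.0 FPKM in ICI replicates 1 to 4 and at 79.7 to 93.1 in Scop, so its groups overlapped. Of the 9, only Per2 and Id1, a differentiation inhibitor gene, had no overlap. The other 7 overlapped with a wide spread within ICI, such as the phosphatase gene Dusp1 (40.7 to 107 FPKM in ICI, 29.4 to 48.9 in Scop). Among all tested genes 2.63% had no overlap with ICI higher. The 9 were picked by their unadjusted p, so they cannot be set against that share. Overlap is not given for all 17 tested genes of the list. Among the members, Sik1, whose transcription CREB drives, had 0.07 (SE 0.06), and Crem, with its form induced by cAMP, had -0.06 (SE 0.09). These lists were chosen with results of these libraries known and are no independent evidence of a direction. Whether CREB acted on the 9 genes in these corneas was not tested.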

How the data were processed

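The values are FPKM as deposited, 1 column for each of the 8 samples. The tools named in the submitters' processing notes are fastp, HISAT2 and HTSeq, and the build is mm10. The sources used here do not give tool versions, the annotation, strandedness or any scaling between samples. Columns were matched to samples by title. FPKM are not counts, so limma 3.58.1 (R 4.3.3; lmFit, eBayes with trend) was run on log2(FPKM + 1) for 12100 genes averaging 0.5 FPKM or more, two-sided, with Benjamini-Hochberg adjustment over all of them and a threshold of 0.05. Fold changes on this scale understate those of low genes.

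Whole fragments were recovered from ratios of a gene's FPKM between libraries (relative tolerance 1e-14, whole within 0.01) for 99.7% of genes above 0 and for all members but Pde4a. A factor shared by a gene's fragments in all libraries would make them too low. No 2 libraries of a group differed by sampling noise alone (lowest chi-square per degree of freedom 12.5). The fit was tested on simulated data for this comparison (12047 genes). It called 11 of 50 genes at a 1.2-fold change. At 1.5-fold it called 44 of 50, at 2-fold 46 of 49 and at 3-fold 50 of 50. There were 10 false calls. The simulated spread was smoothed over genes of like level and drawn for each gene on its own, with no library apart in its cell types. Changed genes were planted, which eases the adjustment, while 0 of 12100 genes passed in the real data. These shares check the fit and do not give the power for the members.

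The members and lists were chosen with earlier results of these data known. Values in every library are given for the highest member of each role, members with an unadjusted p under 0.05 and members without overlap, and from each list the gene with the smallest p and the highest one. Adcy5, Prkacb, Crem, Akap13 and the CREB-related sequences were added after values were seen. Alternatives were other pseudocounts, filters, scalings, eBayes settings, limma-voom, a replicate block, 2 covariates and leaving out libraries.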

Additional observations from a re-analysis of the deposited data

Results flagged for a closer look

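In 5 of 92 groups of 4 libraries searched (46 genes in 2 groups), 1 library lay far from the other 3 of its group by Dixon's ratio, and chance gives about 1 in 20. Adcy4 was at 0.275 FPKM in Scop replicate 3, with the nearest Scop library at 0.904. Pde4c was at 0.0395 FPKM in ICI replicate 4, from 6 fragments, with the nearest ICI library at 0.00631. Crtc3 was at 3.03 FPKM in Scop replicate 2 (nearest 2.77), Crebbp at 6.23 in ICI replicate 4 (nearest 5.53) and Sik3 at 7.33 in Scop replicate 1 (nearest 6.37).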

How the results depend on the processing

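The count of members past an adjusted p under 0.05 was 0 in each direction under all 21 alternatives. At an unadjusted p under 0.05, members higher in ICI numbered 2 with no filter, median-ratio scaling, quantile normalisation, limma-voom or the replicate block, against 1, and 0 with a filter of 5 FPKM or the keratocyte score as covariate. Those lower numbered 2 with no filter or limma-voom, 3 with the keratocyte score and 0 with the ribosomal locus score. With 1 library left out these counts ran from 0 to 3 in both directions, and members without overlap from 0 to 1 (ICI higher) and 0 to 3 (ICI lower), the last also 1 with no filter or median-ratio scaling. Without both ICI replicate 1 and Scop replicate 3, chosen after seeing the data, they were 0 higher, 2 lower and 3 without overlap (ICI lower). Shares of all tested genes are not given beside these counts, and with fewer libraries a lack of overlap is more likely. No result about the members is read from them. Prkar1b lost its unadjusted call without ICI replicate 1, Scop replicate 3 or Scop replicate 4, and Prkar2a on leaving out replicate 2 or 3 of ICI, or replicate 1 or 2 of Scop. The causes were not tested. For the 11 genes that lead a role or had an unadjusted p under 0.05 (Adcy6, Pde7a, Prkaca, Prkar1a, Prkar1b, Prkar2a, Atf1, Rapgef3, Akap8, Sik1 and Pkig), 8 of 228 values changed sign: Akap8 (0.042 with the ribosomal score, and -0.10 to 0.023 with 1 library left out) and Prkaca (0.0062 with median-ratio scaling, 0.011 with quantile normalisation, 0.036 with the ribosomal score, and -0.042 to 0.020 with 1 library left out). The lowest adjusted p of any member under any alternative was 0.138 (Prkar2a).

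The labels do not say whether same-numbered libraries of the 2 groups were handled together. Their deviations correlated by 0.29, -0.01, 0.14 and 0.08 across genes. ICI replicates 1 and 3 matched their own number best, and ICI replicates 2 and 4 did not. Whether the number marks a pair or a batch cannot be told from this. With this number as a block, 2 members were higher and 1 lower at an unadjusted p under 0.05. The share of all tested genes under this fit is not given, so no result about the members is read from the count. Depth limits 7 of the 8 members below 0.5 FPKM, which rested on 0 to 213 fragments per library, but not the long Pde4d (432 to 651).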
